A study of Mus musculus with 6 samples.

Results

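The 29 genes described here cover cholesterol synthesis, its control, and the movement, storage and removal of cholesterol in the cell. They were taken by symbol from a table of 18204 genes, and all 29 were found, Msmo1 under its older symbol Sc4mol. The list holds 20 genes of synthesis, 4 of control (Srebf2, Scap, Insig1 and Insig2) and 5 of handling (Npc1, Npc2, Stard4, Soat1 and Cyp46a1). The cells came from the hypothalamus of C57BL/6J mice aged 8 weeks, either WT or KO for IDOL, with 3 libraries in each group. Drop-seq captures single cells in droplets and counts transcripts by their 3′ ends with unique molecular identifiers (UMIs). The labels used here name no other allele or treatment, and give neither the deleted part of the gene nor the number of animals behind a library. Spread between libraries, on which the KO against WT p-values rest, may thus be technical. The p-values that compare cell classes rest on how class differences vary from library to library, which may be technical too. Preparation took place on 2 days that mixed the groups, with no record of which library was made when.

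Brain cholesterol is made almost wholly within the brain, because lipoproteins of the blood do not cross the blood-brain barrier. Cells build it from acetyl-CoA through mevalonate and squalene. When sterol is scarce, SCAP carries the transcription factor SREBP2 (Srebf2) to the Golgi for activation, and the INSIG proteins hold SCAP back when sterol is plentiful. Oligodendrocytes need cholesterol for myelin, astrocytes supply it to other cells on apolipoprotein E, and neurons dispose of it through the hydroxylase CYP46A1. IDOL, encoded by Mylip, is a ubiquitin ligase that sends the LDL receptor for degradation.

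After filtering, 9333 cells were kept, with 1514439 to 3644549 UMIs per library and a median of 804 to 1017 UMIs per cell. The listed genes had 25507 of these UMIs. Mylip UMIs numbered 68, 27 and 43 in WT against 2, 0 and 0 in KO, as the labels have it, and 3 barcode sequences were seen in 2 libraries. Cells were given to marker-defined classes with the sterol genes left out of the clustering, and 694 cells (7.44%) stayed unnamed. The classes used were neurons (3128 cells), astrocytes (1639), oligodendrocytes (1246), endothelial cells (704), oligodendrocyte precursors (OPC, 590), microglia (391), tanycytes (279), ependymal cells (273) and mural cells (189). The last 3 were small in single libraries. Mural cells had 13 cells with 7520 UMIs in WT2, and KO3 had 16 tanycytes and 17 ependymal cells. Fibroblasts (116 cells), red blood cells (43) and perivascular macrophages (41) had fewer than 10 cells in some libraries and were left out, so rankings are among the 9 classes. Levels by class are in CPM, the UMIs of a gene per 1000000 UMIs of that class and library. Counts at 3′ ends were not divided by length, so a gene's level is compared between classes and not with other genes, and a sum weighs abundant genes most.

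Summed over the 29 genes, the level was 3091 ± 364 CPM (SD, n = 6 libraries) in oligodendrocytes and 2722 ± 183 CPM in astrocytes, against 1399 ± 112 CPM in neurons. Oligodendrocytes were above astrocytes in 4 of 6 libraries, a difference within the SDs. OPC had 1971 ± 152 CPM, microglia 1717 ± 394 CPM, tanycytes 1331 ± 255 CPM and ependymal cells 1282 ± 349 CPM. Endothelial cells had 1062 ± 79.1 CPM and mural cells 718 ± 151 CPM. In this order the steps from astrocytes to OPC and from endothelial to mural cells were larger than the SDs and held in 6 of 6 libraries, and the other steps were within the SDs. Without Npc2, microglia had 707 ± 393 CPM against 1282 ± 102 CPM in neurons and were lower in 5 of 6 libraries. Oligodendrocytes and astrocytes stayed above neurons without it in 6 of 6 libraries. Oligodendrocytes held 20.1% ± 3.88 (SD) of the UMIs of the listed genes and 11.3% of all UMIs, whereas neurons held 36.9% ± 6.93 and 45.5%.

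The functional groups were spread differently over the classes. The 20 synthesis genes summed to 1964 ± 340.4 CPM in oligodendrocytes, 1755 ± 219.5 CPM in astrocytes, 1168 ± 126 CPM in OPC, 856 ± 61.6 CPM in neurons and 514 ± 77.0 CPM in endothelial cells. Control genes varied less, from 131 ± 36.0 CPM in microglia to 303 ± 29.1 CPM in astrocytes, with neurons at 287 ± 33.4 CPM. Among these 9 classes handling genes were highest in microglia at 1211 ± 141 CPM, then oligodendrocytes at 890.1 ± 40.5 CPM and astrocytes at 664 ± 75.3 CPM, and each of these steps held in 6 of 6 libraries. Most of the microglial sum was Npc2 alone, at 1009 ± 112 CPM. Neurons had 256 ± 30.2 CPM of handling genes. Of the classes left out, perivascular macrophages held 0.826% of handling UMIs and 1.24% of Npc2 UMIs on 0.211% of all UMIs, against 5.43% and 7.84% on 1.97% in microglia. Fibroblasts held 1.87% of Insig2 UMIs on 1.04% of all UMIs, against 61.7% on 45.5% in neurons.

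**Figure D1:**
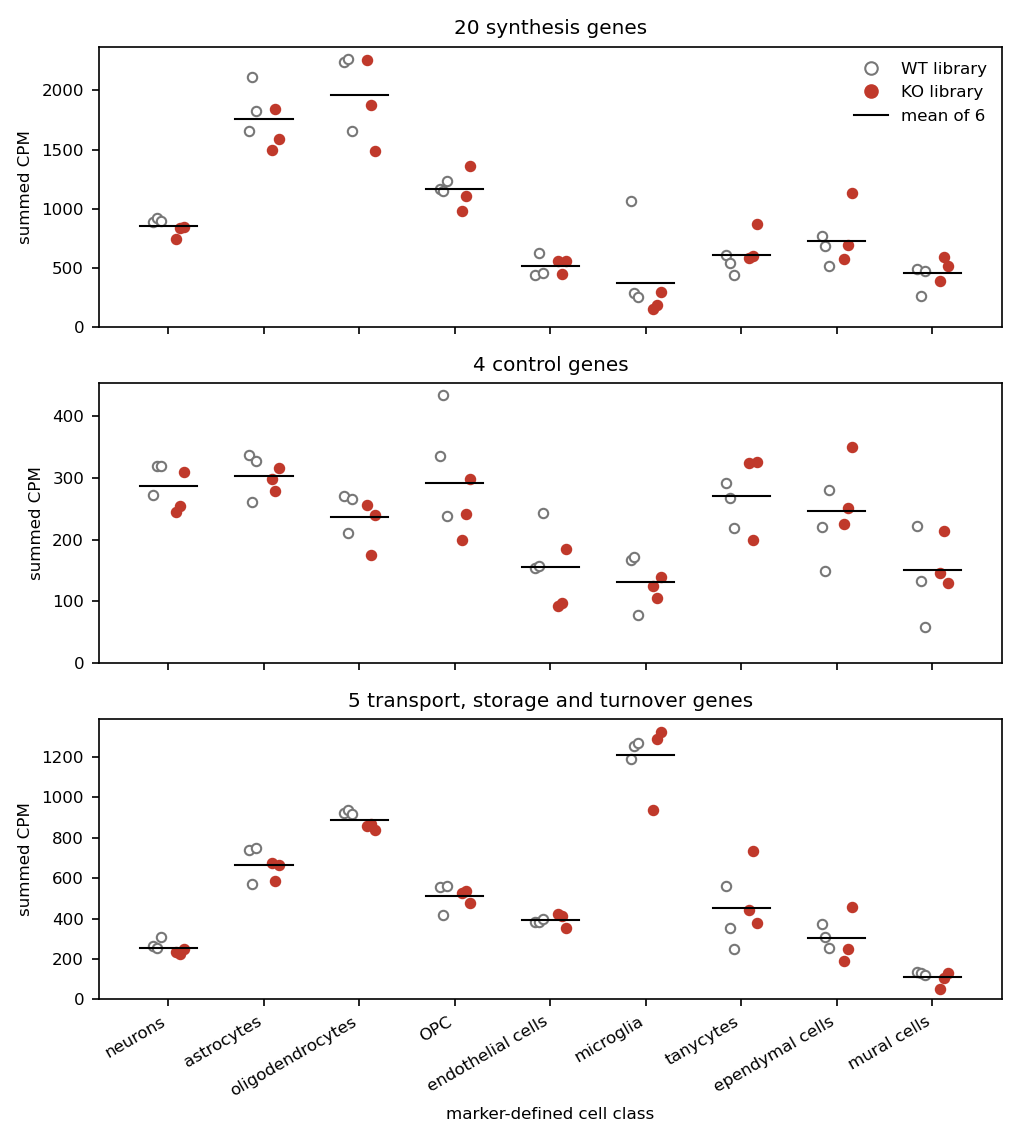
Summed CPM of the synthesis, control and handling genes in each marker-defined class, 1 point per library (open, WT; filled, KO), with a line at the mean of 6 libraries. Synthesis genes are highest in oligodendrocytes and astrocytes and handling genes in microglia, and the WT1 microglia stand apart among the synthesis sums at 1064 CPM.

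Among microglia, the synthesis sum was 1064, 286 and 254 CPM in WT1, WT2 and WT3 and 156, 190.2 and 296 CPM in the KO libraries, so WT1 stood above the other 5. The 11 oligodendrocyte markers summed to 14000 CPM in the WT1 microglia and to between 1813 and 5024 CPM in the other microglia. Their part in the WT1 value was not tested.

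Neurons had more UMIs per cell (median 1432) than astrocytes (626) or oligodendrocytes (1068), so shares of cells were also counted after thinning each cell to 500 UMIs. At least 1 UMI of a listed gene was then found in 47.5% ± 3.50 of neurons, 69.5% ± 2.68 of astrocytes and 71.8% ± 3.81 of oligodendrocytes (SD, n = 6 libraries). Unthinned, the shares were 76.8%, 79.7% and 88.7%. Thinning left out 359 neurons, 360 astrocytes and 46 oligodendrocytes as too shallow.

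Each class was compared with neurons by edgeR's quasi-likelihood test on UMI sums, with library as a block and Benjamini-Hochberg adjustment over all genes tested. Of the 29 genes, 14 passed the filter on low counts. Among these 14, 9 were higher and 1 lower in astrocytes, where 32.7% and 38.1% of all 5174 genes were, and 10 were higher and 1 lower in oligodendrocytes, where 29.5% and 42.0% were. Because a gene that passed through a class where it is high had to differ, all 29 were also tested with no filter. Then 20 of 29 were higher and 3 lower in astrocytes, against 17.5% and 24.9% of 17962 genes, and 20 were higher and 3 lower in oligodendrocytes, against 14.0% and 31.4%. Insig2, Ggps1 and Cyp46a1 were the 3 lower genes in both. The median log2 difference from neurons over the 29 was 1.26 in astrocytes and 1.25 in oligodendrocytes, and over all genes -0.32 and -0.56. DESeq2's scaling raised the median difference of all genes by 0.14 to 0.24 on the log2 scale over the 6 class comparisons, and the differences below are on edgeR's scale.

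**Figure D2:**
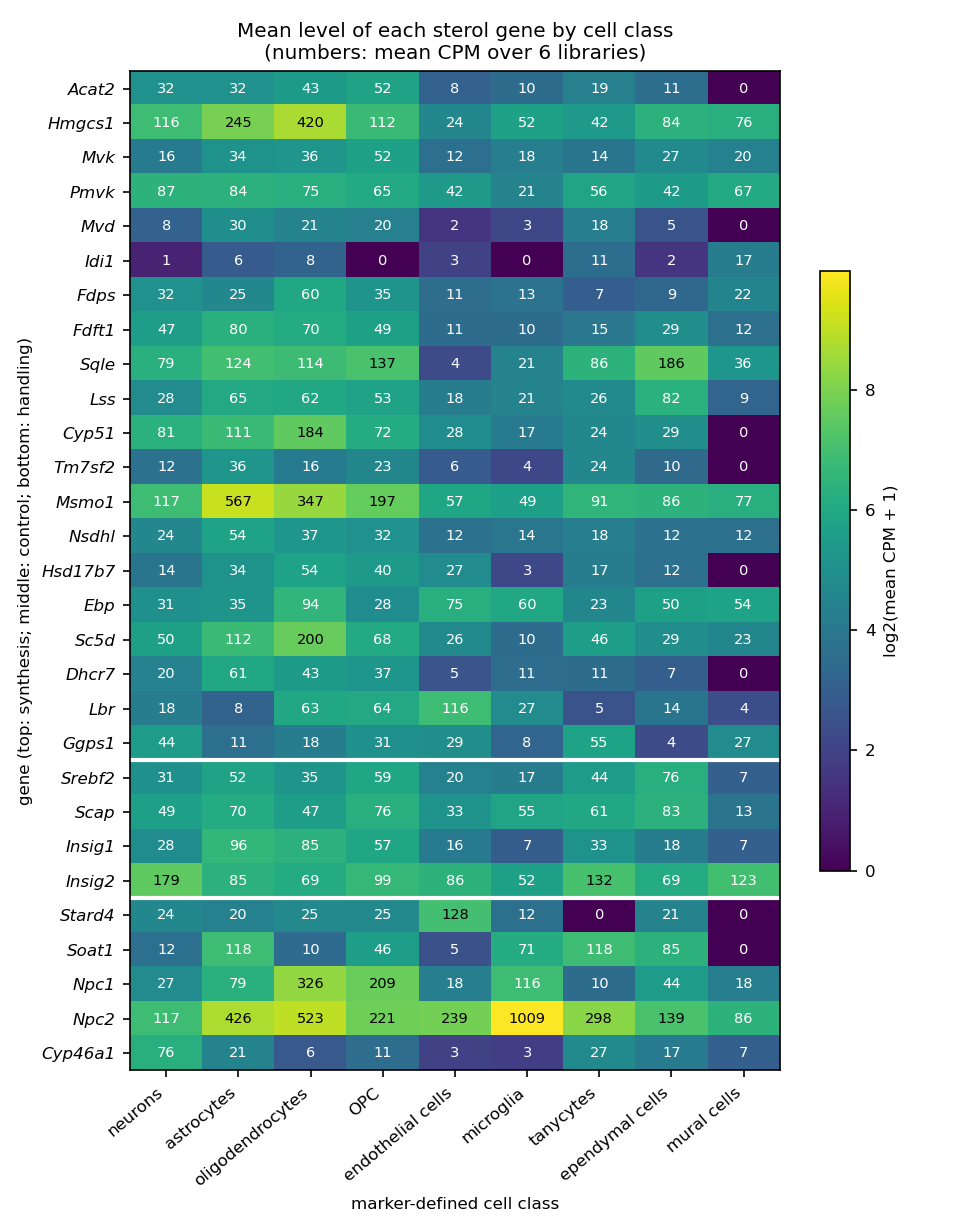
Mean CPM over 6 libraries of each of the 29 genes (rows, grouped as synthesis, control and handling) in each class (columns), printed in each cell and coloured by log2(mean CPM + 1). Msmo1 at 567 CPM in astrocytes, Hmgcs1 at 420.3 CPM in oligodendrocytes and Npc2 at 1009 CPM in microglia are the highest means of those genes among the 9 classes.

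The promoters of Hmgcs1, Msmo1, Insig1 and Insig2 are shown because the first 3 were higher in astrocytes and oligodendrocytes than in neurons, and Insig2 was lower. Each is the 250 bases before the transcript start in RefSeq (GRCm38.p6), written 5′ to 3′ on the gene's strand. Hmgcs1 lies at chr13:119690101-119690350 (plus strand), Msmo1 at chr8:64733579-64733828 (minus), Insig1 at chr5:28071162-28071411 (plus) and Insig2 at chr1:121332590-121332839 (minus, 1 of 3 starts in the table). Capitals mark the NF-Y box CCAAT on either strand and, in Hmgcs1, a match to the sterol regulatory element TCACNCCAC.
Hmgcs1: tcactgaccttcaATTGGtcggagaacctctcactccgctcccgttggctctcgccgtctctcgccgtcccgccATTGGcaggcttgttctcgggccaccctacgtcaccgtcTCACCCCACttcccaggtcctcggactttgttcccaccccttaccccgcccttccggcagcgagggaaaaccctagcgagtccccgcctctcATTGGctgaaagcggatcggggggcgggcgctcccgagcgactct
Msmo1: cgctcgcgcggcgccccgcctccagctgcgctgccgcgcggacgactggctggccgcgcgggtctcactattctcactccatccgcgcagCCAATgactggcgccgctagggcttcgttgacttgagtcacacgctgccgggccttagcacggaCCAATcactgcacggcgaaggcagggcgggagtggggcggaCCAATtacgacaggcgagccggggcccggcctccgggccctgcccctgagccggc
Insig1: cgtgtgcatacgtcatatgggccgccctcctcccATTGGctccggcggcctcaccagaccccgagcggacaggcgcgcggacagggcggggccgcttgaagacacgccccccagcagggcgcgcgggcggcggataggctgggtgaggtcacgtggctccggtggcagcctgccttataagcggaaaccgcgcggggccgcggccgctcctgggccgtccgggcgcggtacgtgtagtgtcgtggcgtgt
Insig2: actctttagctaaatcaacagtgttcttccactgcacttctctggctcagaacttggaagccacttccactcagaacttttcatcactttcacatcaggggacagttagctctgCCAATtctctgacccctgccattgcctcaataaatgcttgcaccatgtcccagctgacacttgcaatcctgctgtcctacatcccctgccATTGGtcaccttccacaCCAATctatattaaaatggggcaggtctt

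The sterol element of Hmgcs1 reads TCACCCCAC and lies at positions -137 to -129 from the start. In these windows Hmgcs1, Msmo1 and Insig2 hold 3 NF-Y boxes each and Insig1 holds 1. Promoters were matched for 24 of the 29 genes, without Fdps, Fdft1, Sqle, Npc1 and Stard4. Searched on both strands from 250 bases before to 50 after a start, the NF-Y box was present in 22 of the 24 genes (91.7%), against 41.1% of 27025 genes, and was not found for Acat2 and Scap. The Sp1 box GGGCGG was also present in 22 of the 24, against 38.2% of genes, and was not found for Ggps1 and Pmvk. TCACNCCAC was found for Hmgcs1 of the 24 genes, against 1.44% of all genes. The 27025 genes outnumber the 18204 measured here and were not matched to the listed genes in expression or base content. The part of such differences in these shares was not tested. The 3 motifs cannot contain one another but may overlap at their ends, and a match describes letters and not a site in use.

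Hmgcs1, the synthase that makes HMG-CoA, had 418, 548 and 279 CPM (WT) and 505, 438 and 334 CPM (KO) in oligodendrocytes. Neurons had 92.4 to 143 CPM, below every oligodendrocyte value. The log2 difference was 2.18 ± 0.13 (SE; adjusted p = 6.4e-34 by edgeR). Astrocytes were between them at 245 ± 47.4 CPM, a log2 difference from neurons of 1.39 ± 0.14 (adjusted p = 2.0e-16). Endothelial cells were lower than neurons, at 23.5 ± 14.9 CPM (log2 difference -2.23 ± 0.35, adjusted p = 9.8e-09).

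Msmo1, which starts the removal of the methyl groups at the C4 position, was highest in astrocytes, with 414, 794 and 656 CPM (WT) and 455, 561 and 523 CPM (KO). Neurons had 100.2 to 133 CPM and did not overlap them. The log2 difference from neurons was 2.55 ± 0.14 in astrocytes (adjusted p = 1.4e-36) and 1.87 ± 0.14 in oligodendrocytes (adjusted p = 6.8e-25, edgeR). Astrocytes were above oligodendrocytes (347 ± 82.4 CPM) in 6 of 6 libraries, although the SDs overlapped.

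Sc5d, a late sterol desaturase, had 301, 211 and 202 CPM (WT) and 215, 167 and 104 CPM (KO) in oligodendrocytes, all above the 31.0 to 61.6 CPM of neurons. Cyp51, the lanosterol demethylase, was also highest in oligodendrocytes, with 216, 279 and 138 CPM (WT) and 219, 163 and 91.6 CPM (KO), against 81.3 ± 13.3 CPM in neurons. Their log2 differences were 2.31 ± 0.16 and 1.45 ± 0.15 (adjusted p = 9.6e-28 and 1.1e-15, edgeR). The last 500 bases of Cyp51 overlap Akap9, and the strand counted was not stated, so their reads cannot be told apart.

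Sqle, the squalene epoxidase, was highest in ependymal cells, with 186, 171 and 161 CPM (WT) and 192, 207 and 197 CPM (KO). Neurons had 72.6 to 92.7 CPM and endothelial cells 0 to 13.3 CPM, with no overlap. The endothelial log2 difference from neurons was -3.67 ± 0.53 (adjusted p = 5.7e-10, edgeR). Lbr, a sterol reductase that also anchors chromatin at the nuclear envelope, was highest in endothelial cells, with 65.8, 157 and 122 CPM (WT) and 92.9, 134 and 125 CPM (KO). Neurons had 8.54 to 29.9 CPM, below all of these, and the log2 difference was 2.74 ± 0.31 (adjusted p = 2.3e-14). Its last 500 bases overlap Dnah14, with the same limit as for Cyp51.

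Ebp, a sterol isomerase, had 137, 57.6 and 120.3 CPM (WT) and 86.9, 91.8 and 71.8 CPM (KO) in oligodendrocytes, all above the 26.3 to 37.3 CPM of neurons, with a log2 difference of 1.89 ± 0.20 (adjusted p = 4.3e-15, edgeR). Endothelial cells had 74.8 ± 20.3 CPM. Pmvk, the phosphomevalonate kinase, had 84.2, 83.2 and 79.3 CPM (WT) and 81.1, 87.9 and 105 CPM (KO) in neurons, 83.8 ± 27.5 CPM in astrocytes and 74.8 ± 17.6 CPM in oligodendrocytes. Its log2 differences from neurons, 0.14 ± 0.18 and 0.06 ± 0.17, did not pass. Ggps1, whose product is attached to proteins rather than built into sterol, had 43.5 ± 10.1 CPM in neurons and 11.5 ± 8.73 CPM in astrocytes. Idi1 had 45 UMIs in all cells together. The other synthesis genes (Acat2, Mvk, Mvd, Fdps, Fdft1, Lss, Tm7sf2, Nsdhl, Hsd17b7 and Dhcr7) had means of at most 82.2 CPM in any class, that of Lss in ependymal cells. The last 500 bases of Fdft1 overlap Ctsb, with the same limit as for Cyp51.

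Several enzymes below the filter passed when none was applied. Mvd, the mevalonate decarboxylase, had 41.7, 19.4 and 25.2 CPM (WT) and 23.3, 42.0 and 30.2 CPM (KO) in astrocytes, against 2.87 to 10.7 CPM in neurons (log2 difference 2.11 ± 0.33, adjusted p = 8.0e-10, edgeR). Tm7sf2, a sterol reductase, had 56.5, 9.68 and 25.2 CPM (WT) and 40.9, 34.4 and 50.3 CPM (KO) in astrocytes, against 9.04 to 18.1 CPM (1.94 ± 0.29, adjusted p = 1.5e-10). Dhcr7, a late sterol reductase, had 41.7, 58.1 and 70.6 CPM (WT) and 93.4, 64.9 and 36.9 CPM (KO) in astrocytes, against 12.3 to 29.5 CPM (1.65 ± 0.24, adjusted p = 8.4e-11). Each of these 3 had a higher mean in astrocytes than in any other of the 9 classes. Hsd17b7, a sterol ketoreductase, had 58.2, 62.4 and 55.9 CPM (WT) and 45.5, 62.6 and 42.1 CPM (KO) in oligodendrocytes, against 9.09 to 20.0 CPM in neurons (2.12 ± 0.25, adjusted p = 9.0e-17). Lss was higher than in neurons in oligodendrocytes and astrocytes by 1.37 ± 0.22 and 1.36 ± 0.23 on the log2 scale, and Ggps1 differed in astrocytes by -1.84 ± 0.35.

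The 2 INSIG genes differed from neurons in opposite directions in astrocytes and oligodendrocytes, while endothelial cells and microglia had lower means than neurons for both. Insig1 had 119, 67.8 and 95.8 CPM (WT) and 105, 95.5 and 93.9 CPM (KO) in astrocytes. Neurons had 15.2 to 37.6 CPM, below every astrocyte value. Its log2 difference from neurons was 2.09 ± 0.21 in astrocytes and 1.90 ± 0.21 in oligodendrocytes (adjusted p = 2.8e-16 and 1.5e-14, edgeR). Insig2 was highest in neurons among the 9 classes, with 168, 204 and 224 CPM (WT) and 163, 174 and 139.8 CPM (KO). Astrocytes had 64.2 to 116 CPM, below every neuron value, and the log2 difference was -0.76 ± 0.16 (adjusted p = 9.6e-06). It was -1.02 ± 0.16 in oligodendrocytes, -1.06 ± 0.21 in OPC, -0.96 ± 0.21 in endothelial cells and -1.74 ± 0.34 in microglia, and each passed. Neuron clusters differed: Insig2 had 193 ± 42.3 CPM in the largest (1328 cells) and 97.3 ± 29.1 CPM in another (857 cells). The latter was close to OPC at 98.8 ± 36.4 CPM. Srebf2 had 26.6, 40.1 and 25.4 CPM (WT) and 23.5, 28.7 and 43.8 CPM (KO) in neurons and 52.4 ± 8.68 CPM in astrocytes. Scap, the escort of SREBP2, had 40.9, 53.0 and 32.9 CPM (WT) and 43.9, 28.7 and 91.8 CPM (KO) in neurons and 69.7 ± 7.61 CPM in astrocytes, and its neuron values were highest in KO3.

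**Figure D3:**
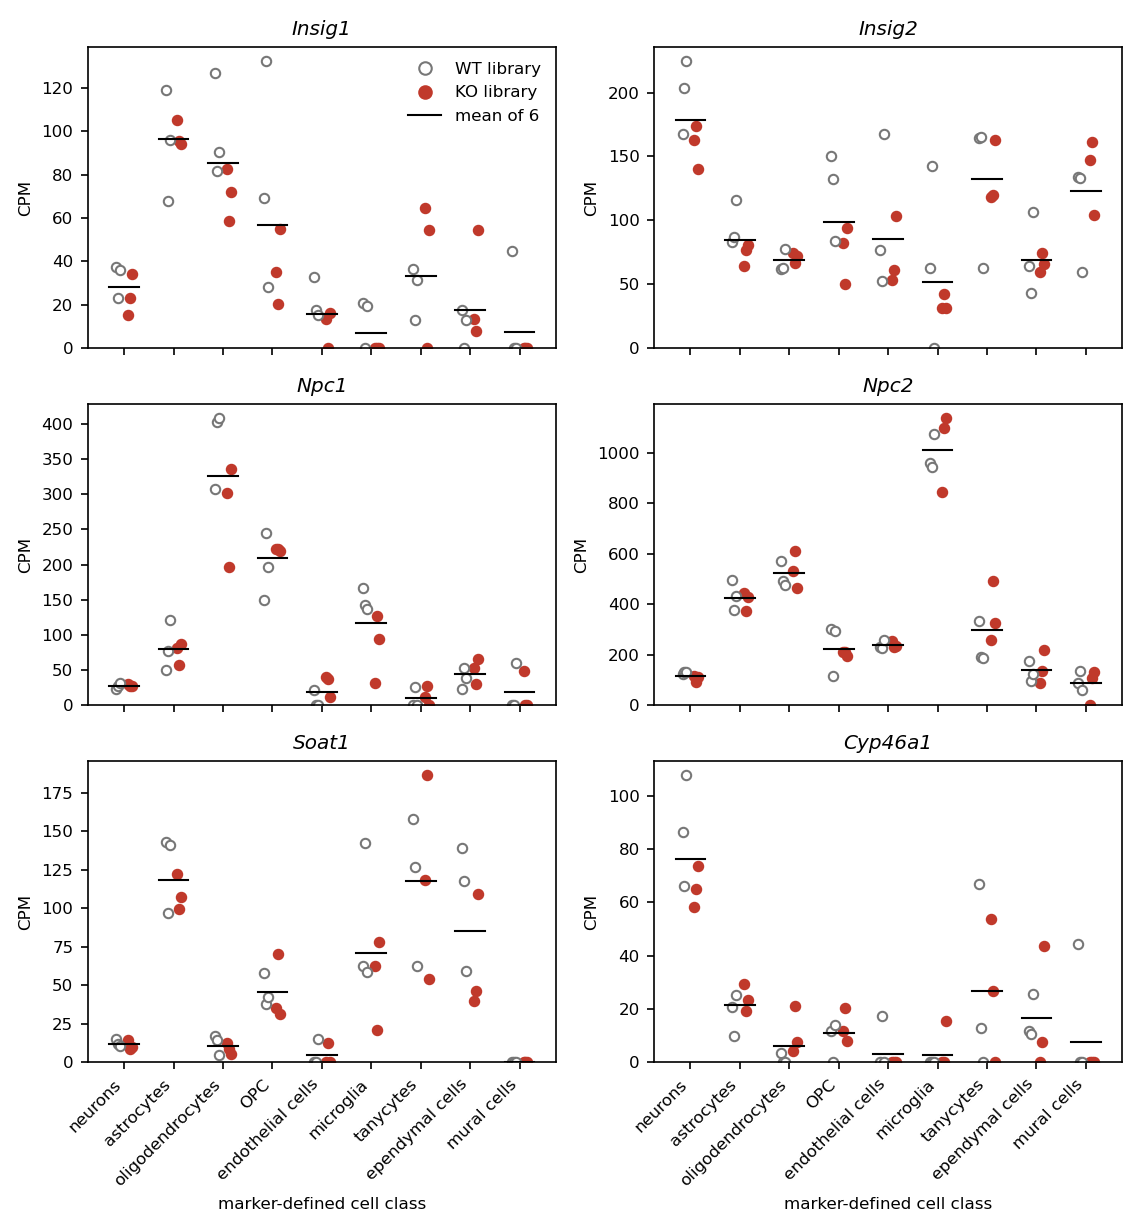
CPM of Insig1, Insig2, Npc1, Npc2, Soat1 and Cyp46a1 in each marker-defined class, 1 point per library (open, WT; filled, KO), with a line at the mean of 6 libraries. The highest means are those of Insig1 and Soat1 in astrocytes, Insig2 and Cyp46a1 in neurons, Npc1 in oligodendrocytes and Npc2 in microglia.

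Npc1 and Npc2 act together to move cholesterol out of lysosomes. Npc1 had 308, 404 and 408 CPM (WT) and 302, 196 and 337 CPM (KO) in oligodendrocytes. Neurons had 22.8 to 31.4 CPM, and the log2 difference was 3.83 ± 0.15 (adjusted p = 5.1e-51, edgeR). OPC had 209 ± 32.9 CPM and microglia 116 ± 48.1 CPM. Oligodendrocytes held 47.7% ± 9.85 (SD) of its UMIs. The last 500 bases of Npc1 overlap Rmc1, and with the strand counted not stated their reads cannot be told apart.

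Npc2 had 960, 942 and 1075 CPM (WT) and 844, 1099 and 1136 CPM (KO) in microglia. All of these were above every library of the other classes among the 9, which do not include perivascular macrophages. Oligodendrocytes followed at 523 ± 57.8 CPM and neurons had 117 ± 14.8 CPM. The log2 difference from neurons was 3.31 ± 0.15 in microglia, 2.49 ± 0.12 in oligodendrocytes and 2.17 ± 0.13 in astrocytes (adjusted p = 2.3e-43, 1.3e-40 and 1.7e-33, edgeR). In cells thinned to 500 UMIs, 39.8% ± 4.45 of microglia and 4.67% ± 1.27 of neurons had an Npc2 UMI, against 44.8% and 17.5% unthinned.

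Soat1, which esterifies cholesterol for storage, had 143, 96.8 and 141 CPM (WT) and 122, 99.3 and 107 CPM (KO) in astrocytes. Tanycytes were at 118 ± 52.0 CPM, not separate from astrocytes, while neurons had 8.21 to 15.2 CPM. Ependymal cells had 85.2 ± 42.0 CPM, microglia 70.9 ± 39.9 CPM and OPC 45.8 ± 15.2 CPM. The log2 difference from neurons was 3.60 ± 0.23 in astrocytes and 3.30 ± 0.30 in tanycytes (adjusted p = 1.1e-29 and 4.9e-19, edgeR). In oligodendrocytes it was 0.09 ± 0.41 and did not pass. The 10 astrocyte markers summed in tanycytes to 19.7% of their astrocyte level, and their part in the tanycyte value was not tested.

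Stard4, a carrier of sterol between membranes, was highest in endothelial cells, with 132, 139.7 and 122 CPM (WT) and 133, 134 and 109 CPM (KO). Neurons had 18.2 to 31.2 CPM, below all of these, and the log2 difference was 2.40 ± 0.28 (adjusted p = 2.3e-13, edgeR). Tanycytes had 0 Stard4 UMIs, which allows up to 6.50 CPM, counting error only.

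Cyp46a1, the cholesterol hydroxylase, had 86.6, 66.0 and 108 CPM (WT) and 58.3, 64.9 and 73.7 CPM (KO) in neurons. Tanycytes followed at 26.7 ± 28.2 CPM, astrocytes at 21.2 ± 6.67 CPM, and oligodendrocytes had 5.98 ± 7.81 CPM. Neurons were above tanycytes in 6 of 6 libraries and held 83.3% ± 4.81 (SD) of the gene's UMIs. It failed the filter on low counts, and with no filter the log2 difference from neurons was -1.60 ± 0.27 in astrocytes and -3.31 ± 0.34 in oligodendrocytes (adjusted p = 9.0e-09 and 1.1e-21, edgeR). The 10 neuron markers stood at 3.54% of their neuron level in astrocytes and 13.6% in tanycytes, and their part in those values was not tested. In cells thinned to 500 UMIs, 4.25% ± 1.29 of neurons and 0.0833% ± 0.204 of oligodendrocytes had a Cyp46a1 UMI, against 13.5% and 0.743% unthinned.

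Against neurons, OPC had 6 of the 14 filtered genes higher and 1 lower, where 25.4% and 33.8% of all genes were. Endothelial cells had 4 higher and 6 lower, against 29.9% and 40.5%. Microglia had 4 higher and 7 lower, against 25.4% and 38.9%. Tanycytes had 2 higher (Soat1 and Npc2) and 5 lower, against 23.7% and 33.5%. With no filter, of all 29 OPC had 6 higher and 4 lower (all genes 10.8% and 20.3%), endothelial cells 4 higher and 12 lower (all genes 14.3% and 26.7%), microglia 3 higher and 12 lower (all genes 10.8% and 25.9%) and tanycytes 3 higher and 11 lower (all genes 11.6% and 21.6%). With the filter, the 7 lower genes in microglia became 4 without KO2, without KO3 or without WT3. The 4 higher in endothelial cells became 2 without KO3 or without WT3, and the 5 lower in tanycytes became 3 without KO3. The 1 lower gene in OPC became 2 without KO2. Msmo1 and Sqle in OPC and Ebp in microglia were higher with the filter and did not pass without it.

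Another 34 genes of the pathway were listed beside the 29, of which 33 were found. With no filter, 20 of the 33 were higher and 6 lower in astrocytes than in neurons, where 17.5% and 24.9% of all genes were. In oligodendrocytes 14 were higher and 7 lower, against 14.0% and 31.4%. Apoe, the lipoprotein that carries cholesterol between brain cells, had a log2 difference from neurons of 7.31 ± 0.24 in astrocytes, 5.83 ± 0.22 in tanycytes and 4.41 ± 0.22 in microglia (adjusted p = 6.4e-58, 1.4e-49 and 1.0e-38, edgeR). It was also higher in OPC, endothelial cells and oligodendrocytes.

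KO and WT libraries were compared gene by gene in all cells and within classes. Of the listed genes, none passed in any class tested, which does not show that they are unchanged. In simulated counts, 24.2% of genes changed 2-fold were called in all cells and 49.2% in neurons. For astrocytes and oligodendrocytes the shares were 48.3% and 60.7%. In all cells 28 of 29 were tested, without Idi1, and 0 were called, against 0.0% of 13059 genes. Their log2 differences were positive for 10 and negative for 18, with a median of -0.09 against 0.01 for all genes. At an unadjusted p under 0.05 there were 0 of the 28 by edgeR and by DESeq2, and 2.05% of all genes by edgeR. Neurons had 27 tested (9 positive, 18 negative, median -0.18) and 0 called, against 0.0306%. Astrocytes had 17 tested (4 positive, 13 negative, median -0.09) and 0 called, against 0.0477%. Oligodendrocytes had 20 tested (9 positive, 11 negative, median -0.16) and 0 called, against 0.154%. DESeq2 called 0 in each of these classes too. GABAergic neurons (25 tested) and glutamatergic neurons (13 tested) had 0 called, against 0.0442% and 0.0%. At an unadjusted p under 0.05 they had 2 and 1, against 4.15% and 6.01% of all genes. OPC, endothelial cells and microglia had 4, 2 and 1 genes tested and 0 called, against 0.0%, 0.0% and 0.138%. At the unadjusted threshold they also had 0, against 6.72%, 5.27% and 6.74%.

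**Figure D4:**
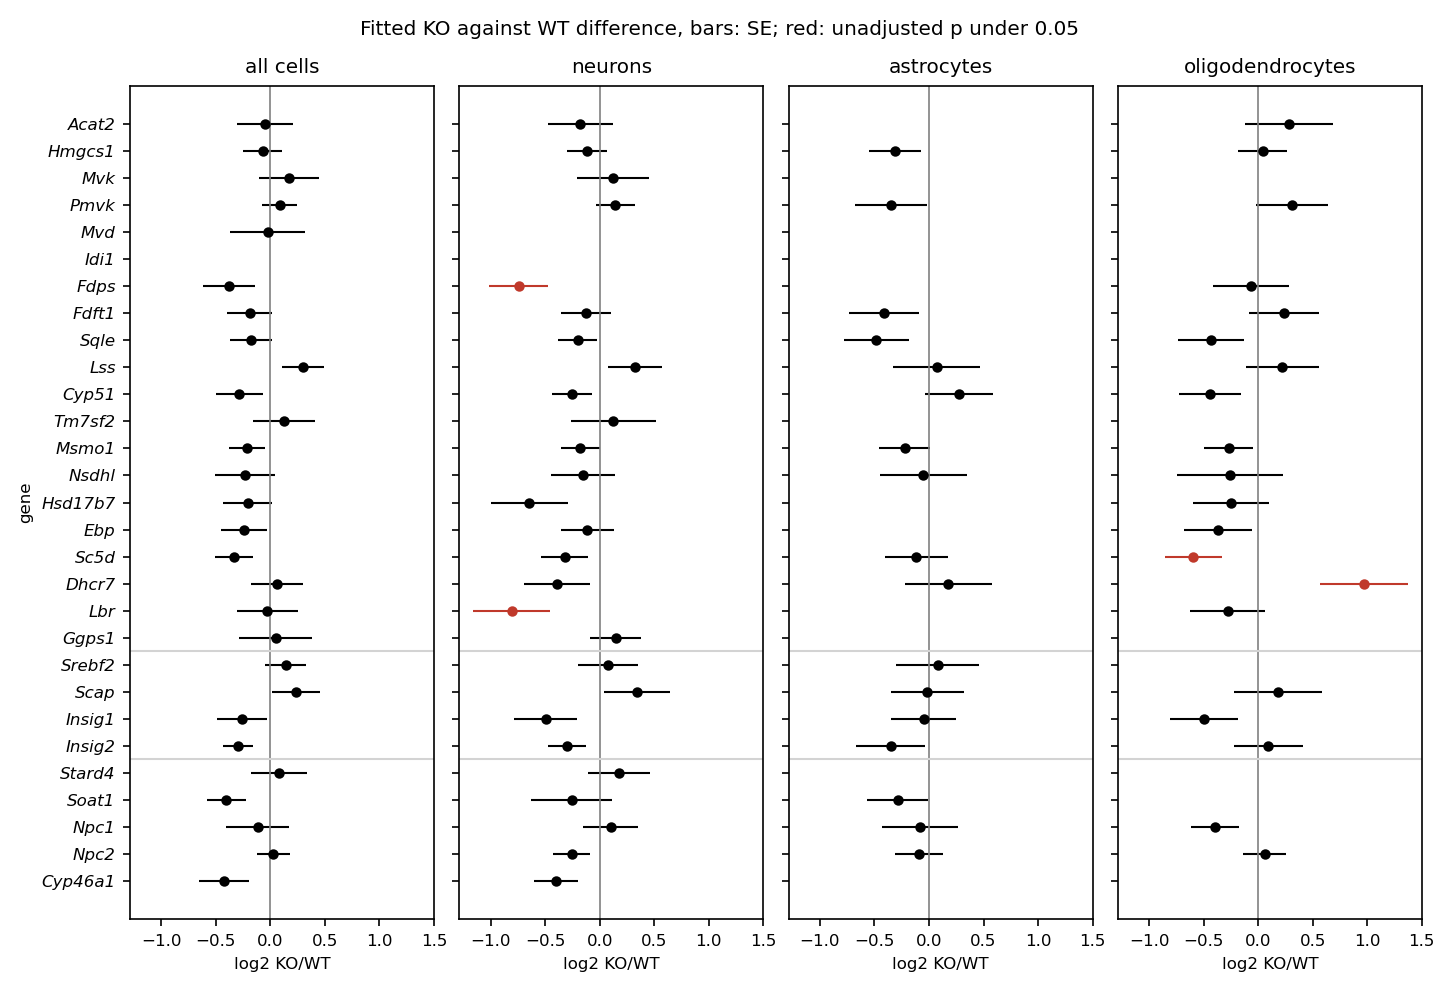
Fitted log2 difference of KO from WT for the listed genes that passed the filter, by panel of cells, with bars of 1 SE; red marks an unadjusted p under 0.05. The points spread on both sides of 0 and none passed after adjustment.

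The sum of the 29 genes was lower in every KO library than in any WT library in all cells, neurons and astrocytes. Neurons and astrocytes are part of all cells, so these are not independent results. In all cells the sum was 1760, 1846 and 1768 CPM in WT and 1556, 1647 and 1734 CPM in KO. Neurons had 1424, 1498 and 1523 CPM in WT and 1229, 1312 and 1407 CPM in KO. Astrocytes had 2729, 2943 and 2906 CPM in WT and 2474, 2708 and 2571 CPM in KO. Oligodendrocytes overlapped, with 3433, 3410 and 2845 CPM in WT and 3373, 2918 and 2569 CPM in KO. With every class given a fixed weight in all libraries, a check chosen after seeing the data, the sum was 1822 ± 45.6 CPM in WT and 1685 ± 63.5 CPM in KO (SD, n = 3), again with no overlap, while the synthesis, control and handling sums each overlapped. No p is given for sums over the list, and how often sums over other genes do not overlap was not counted.

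**Figure D5:**
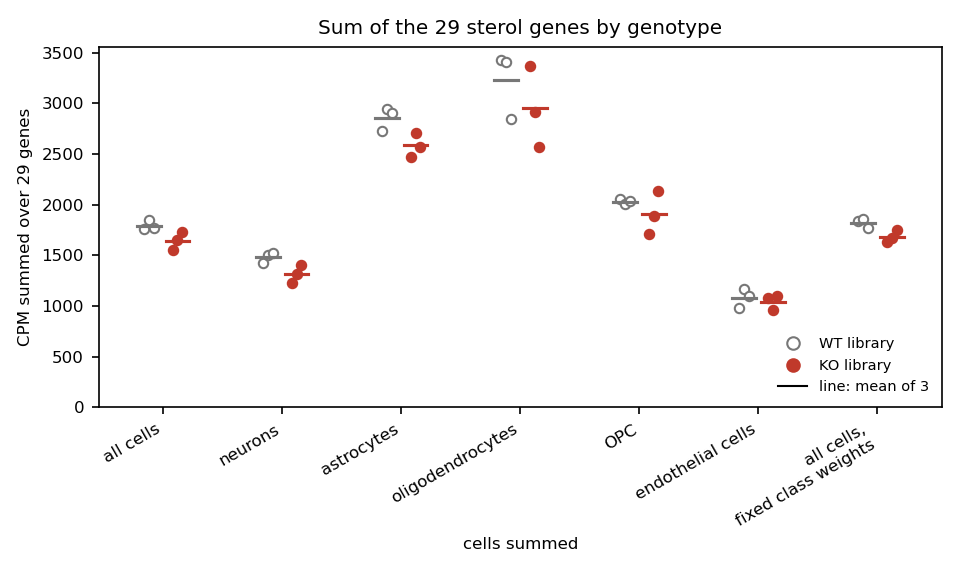
CPM summed over the 29 genes in each library (open, WT; filled, KO) in all cells, by class, and in all cells with fixed class weights, with lines at the mean of 3 libraries. KO libraries lie below WT libraries in all cells, neurons and astrocytes, and overlap them in oligodendrocytes.

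For single genes, values by genotype are CPM after TMM scaling of the libraries. In neurons 2 of 27 had an unadjusted p under 0.05, where 4.34% of all genes did. Fdps, which makes farnesyl diphosphate, had 42.5, 39.3 and 38.5 CPM in WT and 20.5, 16.6 and 37.4 CPM in KO neurons. KO1 and KO2 were well below the WT libraries and KO3 just below them. The log2 difference was -0.74 ± 0.27 (adjusted p = 0.99, edgeR), from -1.12 to -0.52 when a library was left out. The last 500 bases of Fdps overlap Gm43738 on the same strand, so their reads may be mixed. Lbr had 17.7, 21.8 and 30.8 CPM in WT and 10.3, 18.3 and 8.56 CPM in KO neurons, which overlapped, with a log2 difference of -0.81 ± 0.35 (adjusted p = 0.99).

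In oligodendrocytes 2 of 20 had an unadjusted p under 0.05, where 7.56% of all genes did. Dhcr7, the reductase that ends one branch of the pathway, had 30.1, 37.7 and 28.6 CPM in WT and 79.8, 47.0 and 61.9 CPM in KO, without overlap. It rests on 6 to 23 UMIs per library, and the log2 difference was 0.97 ± 0.40 (adjusted p = 0.59, edgeR). Sc5d had 331, 237 and 224 CPM in WT and 244, 188 and 113 CPM in KO, which overlapped, with a log2 difference of -0.59 ± 0.26 (adjusted p = 0.60), from -0.87 to -0.30 when a library was left out. Astrocytes had 0 of 17, where 4.44% of all genes had such a p.

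Whatever the test gave, some genes did not overlap between genotypes. In all cells Insig2, Sc5d and Soat1 were lower in each KO library and Lss, the lanosterol synthase, higher, 3 and 1 of 28, where 3.21% and 4.14% of all genes were. Soat1 had 49.8, 47.0 and 37.5 CPM in WT and 33.7, 35.4 and 32.8 CPM in KO, a log2 difference of -0.40 ± 0.18 (adjusted p = 1.00, edgeR), and overlapped within astrocytes. Among other classes with more Soat1 than neurons, tanycytes made up 3.74% ± 1.59 of WT cells and 2.38% ± 1.39 of KO cells (SD, n = 3). Ependymal cells made up 3.26% ± 0.79 and 2.79% ± 1.98, and microglia 4.69% ± 1.52 and 3.94% ± 0.42. OPC went the other way, at 5.57% ± 0.80 and 6.985% ± 0.43. The part of these shares in the Soat1 values was not tested. Insig2 had 134, 148 and 154 CPM in WT and 123, 116 and 116 CPM in KO. Neurons had 4 lower (Fdps, Npc2, Sc5d and Sqle) and 1 higher (Lss) of 27, against 4.81% and 5.3%. Astrocytes had 2 lower (Hmgcs1 and Insig2) of 17, against 4.73%, and oligodendrocytes 1 higher (Dhcr7) of 20, against 6.27%. GABAergic neurons had 4 lower (Cyp46a1, Cyp51, Npc2 and Sc5d) and 1 higher (Pmvk) of 25, against 4.48% and 4.66%, and glutamatergic neurons 3 lower (Fdft1, Fdps and Pmvk) of 13, against 5.95%. OPC had 0 of 4 in either direction, against 5.03% and 6.77%, endothelial cells 0 of 2, against 5.39% and 4.48%, and microglia 0 of 1, against 5.78% and 6.33%.

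Cyp46a1 in neurons had 86.8, 67.0 and 111 CPM in WT and 60.8, 65.7 and 73.8 CPM in KO, which overlapped, with a log2 difference of -0.40 ± 0.20 (adjusted p = 0.99, edgeR), from -0.55 to -0.24 when a library was left out. Npc1 in oligodendrocytes had -0.40 ± 0.22 (adjusted p = 0.75), also with overlap. The difference of the KO effect between astrocytes and neurons was tested as an interaction in 28 listed genes. By edgeR 0 passed, against 0.0311% of 9645 genes, and 0 had an unadjusted p under 0.05, against 3.75%, as was so with DESeq2. By edgeR with the filter, all libraries and no replicate block, none of the other pathway genes passed in any class. There were 31 tested in all cells, 26 in neurons, 15 in astrocytes and 16 in oligodendrocytes. Apoe in microglia passed under some other settings, given below.

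In neurons Abca1, a cholesterol exporter, had 7.63, 2.91 and 7.70 CPM in WT and 13.4, 11.6 and 19.2 CPM in KO, a log2 difference of 1.13 ± 0.41 (adjusted p = 0.99, edgeR). In astrocytes Erg28, a scaffold of late synthesis enzymes, had 145, 64.5 and 153 CPM in WT and 27.8, 71.0 and 77.9 CPM in KO, which overlapped, a log2 difference of -1.04 ± 0.35 (adjusted p = 1.00). Cyp7b1, an oxysterol hydroxylase, had 131, 194 and 129.5 CPM in WT and 83.5, 111 and 70.5 CPM in KO, without overlap, a log2 difference of -0.71 ± 0.31 (adjusted p = 1.00). These 3 had an unadjusted p under 0.05.

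Apoe in microglia, named after its values were seen, depended on the setting. It had 7162, 14690 and 4137 CPM in WT and 3187, 3609 and 1398 CPM in KO, without overlap and with WT2 the highest. The log2 difference was -1.68 ± 0.37 (adjusted p = 0.083, edgeR), and the adjusted p was 1.00 by DESeq2, 4.7e-05 with no gene filter and 4.1e-09 with the replicate block. Without WT2 the log2 difference was -1.04 (adjusted p = 0.66), while the adjusted p was 0.012 without WT1, 0.028 without WT3 and 0.19 to 0.21 without any 1 KO library. The 10 astrocyte markers summed in microglia to 730.5, 1399 and 665 CPM in WT and 469, 719 and 482 CPM in KO, also highest in WT2, and their part in the Apoe values was not tested.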

How the data were processed

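Drop-seq UMI counts per gene and cell barcode, raw in the deposited table, were used for 6 libraries. Reads were processed with bcl2fastq and STAR 2.5.0c against mm10 (GRCm38), per the submitters' processing notes; the counting program, strand and annotation were not given in the sources used here. The table held 13994 barcodes. Those with at least 300 genes and at most 20% mitochondrial UMIs were kept (9449), and 116 called doublets (1.23%) were removed. Clustering used scanpy 1.11.5, igraph 0.11.9, leidenalg 0.10.2 and scikit-learn 1.9.0 (2000 variable genes without the sterol genes, 30 components, 15 neighbours, Leiden resolution 1, 42 clusters). Clusters were named from marker lists, by a rule set after seeing the cells, so differences from the study's own cell types may come from these names.

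UMIs were summed per library and class and tested with edgeR 4.0.16 in R 4.3.3 (TMM, filterByExpr, quasi-likelihood, Benjamini-Hochberg over all genes tested, threshold 0.05). The SE given for an edgeR log2 difference is its size divided by the square root of the test's F statistic, so it is approximate. Near 0 it was unstable, as for Soat1 in oligodendrocytes, with 0.41 with the filter and 0.28 with none. DESeq2 1.42.0 was an alternative. KO and WT were compared in classes with at least 20 cells in every library, which left out tanycytes, ependymal and mural cells. The comparison of classes with neurons had no such minimum and included tanycytes. The scripts were tested on simulated data. A count of 0 was given an upper limit of 3 UMIs; limits cover counting error only. Other alternatives were no gene filter, 500 genes per cell, doublets kept, Leiden resolution 0.5 and sterol genes in the clustering. Further ones were UMI totals without mitochondrial genes, a replicate block and each library left out.

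The members and lists were chosen with earlier results of these data known. Values in every library are given for members that passed the filtered test in any class, had an unadjusted p under 0.05 for KO against WT in all cells, neurons, astrocytes or oligodendrocytes, were among the 5 highest in all cells, or were control, export or storage genes; where a member passed in several classes, 1 class is given by library, usually that of its highest level; members that passed only without the filter are given by library for 4 genes and otherwise by their differences or by count. Other pathway genes were named only under the first or second of these. Some pathway genes are counted but not reported here by name.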

Additional observations from a re-analysis of the deposited data

How the results depend on the processing

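Of the KO against WT results, the count of listed genes called was 0 in every class under every alternative run, the replicate block included. With no gene filter, 20 listed genes were higher and 3 lower than in neurons in astrocytes, 20 higher and 3 lower in oligodendrocytes, and the lower genes numbered 4 in OPC, 12 in endothelial cells, 12 in microglia and 11 in tanycytes; more genes were tested there. DESeq2 called 4 lower in microglia. With at least 500 genes per cell, 2 were higher in endothelial cells, 1 was lower in microglia and 2 were lower in tanycytes, and the summed level in mural cells was 555 CPM. Leaving out each library gave 1 to 2 lower in OPC, 2 to 4 higher in endothelial cells, 4 to 7 lower in microglia and 3 to 6 lower in tanycytes. At Leiden resolution 0.5 the sum in glutamatergic neurons was 1213 CPM. With mitochondrial genes left out of the UMI total, the sum in astrocytes was 2981 CPM. The cause of these shifts was not tested beyond the number of genes. No result reversed.

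WT and KO libraries share the numbers 1 to 3. Deviations of same-numbered libraries from their group means had correlations of 0.253, -0.153 and 0.226 over 13059 genes. Between libraries of different numbers they ranged from -0.362 to 0.145. WT1 correlated best with KO1 and WT3 with KO3, but WT2 did not correlate best with KO2. The numbers were not taken as pairs. With the replicate block 0 listed genes were called in all cells and in each class. Depth limits the KO against WT comparison most in OPC, endothelial cells and microglia, where 4, 2 and 1 of the 29 genes could be tested.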

Other observations

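Within classes the listed genes also varied between clusters, chosen here after their values were seen and given as a description. A neuron cluster of 71 cells (6 to 21 per library) led by Hdc, which makes histamine, with Slc18a2 and Maob among its leading genes, had a sum of 2167 ± 334 CPM over the 29 genes (SD, n = 6 libraries). The other 6 neuron clusters with enough cells had means of 1029 to 1423 CPM. Hmgcs1 in the Hdc cluster was at 396, 734 and 333 CPM in the WT libraries and 405, 368 and 487 CPM in the KO libraries, on 101 UMIs in all. In the largest neuron cluster (1328 cells) Hmgcs1 was at 117 ± 22.5 CPM.

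Oligodendrocytes fell into 2 clusters with shared leading genes. One of 337 cells with Apod among its leading genes had a sum of 3635 ± 721 CPM and Hmgcs1 at 604 ± 218 CPM. The other, of 909 cells, had 2773 ± 264.5 CPM and Hmgcs1 at 328 ± 109 CPM. The 2 astrocyte clusters had similar sums, 2740 ± 221 and 2670 ± 407 CPM, while Msmo1 was at 641 ± 133 CPM in the larger (1402 cells) and 383 ± 143 CPM in the smaller (237 cells), and Hmgcs1 at 189 ± 51.8 and 376 ± 130.2 CPM.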
